A study of Mus musculus with 5 samples.

Results

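Hepatocytes that stayed dark with a fluorescent reporter of fatty acid oxidation, FAO, were compared between the livers of mice given bezafibrate and of control mice. The comparison sets 2 of the series' 5 libraries against each other, 1 from the probe-negative gate of each treatment. Of 13966 gene symbols in the deposited table, 8981 with a mean of at least 5 normalised reads over the 5 libraries were analysed.

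All 5 libraries came from liver hepatocytes of ICR mice, an outbred stock. The mice had received the probe, and the cells were then sorted by it. No genetic change is labelled. Control mice gave a negative and a positive gate, and mice given bezafibrate gave a negative, a positive and a high gate. No dose, duration, sex, age or number of mice is stated in the labels, nor whether the gates of a treatment share a liver. Treatment and mouse therefore cannot be told apart. With 1 library per group no difference could be checked against replicates, and the comparisons of 2 libraries below carry no p-value. The probe-negative gate is a sort by signal, so its cells are hepatocytes of low probe signal under each treatment and not hepatocytes without FAO genes.

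Bezafibrate is a fibrate, a class of lipid-lowering drugs that bind peroxisome proliferator-activated receptors (PPARs). In hepatocytes the main receptor is PPARalpha, which pairs with a retinoid X receptor (RXR), binds a direct repeat of AGGTCA-like sites and raises transcription of genes that take up, activate and oxidise fatty acids. Fatty acids are shortened by beta-oxidation in peroxisomes and mitochondria and hydroxylated at their far end by Cyp4a enzymes of the endoplasmic reticulum, the first step of omega-oxidation.

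The recovered depth was 5454866 reads in control negative and 7146578 in bezafibrate negative, so 1 read was worth 0.205 and 0.133 normalised reads. The RNA make-up differed between these libraries. Precursor ribosomal RNA, Rn45s, took 36.3% of control negative reads and 10.5% of bezafibrate negative reads (34.8%, 18.5% and 13.5% in control positive, bezafibrate positive and bezafibrate high). Hepatocyte markers summed to 53721 normalised reads in control negative and 124350 in bezafibrate negative. Alb held 24303 and 72188 of these sums, and 10 of 11 analysed markers were higher. The 10 Kupffer cell markers in the table, of 14 listed, summed to 77.8 and 147.3, of which Slc40a1, an iron exporter, held 67.3 and 140.0; the other 9 summed to 10.5 and 7.33. Adgre1, Vsig4, Timd4 and Marco are not analysed here. Stellate cell markers summed to 109.6 and 37.3, mostly Reln at 93.4 and 29.5. Endothelial markers summed to 38.0 and 26.1, cholangiocyte markers to 89.3 and 92.1 and erythroid markers to 25.3 and 45.5. T and NK, B and neutrophil lists each summed to at most 3.45 in all 5 libraries. In sorted bulk RNA, fewer cells of a type and less RNA per cell cannot be told apart. The part of RNA make-up and of other cells in the differences below was not tested.

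Bezafibrate negative hepatocytes had at least 2-fold more RNA of 923 genes and at least 2-fold less of 526 genes than control negative hepatocytes, on the scale of log2(value + 1). These were 10.3% and 5.86% of the genes analysed, 16.1% in all. At 1.5-fold 22.6% were higher and 17.5% lower. At 4-fold the counts were 90 higher (1%) and 43 lower (0.479%), and at 8-fold 17 (0.189%) and 7 (0.0779%). The median over all genes was 0.02 on the log2 scale, with quartiles at -0.42 and 0.52. The exact Clopper-Pearson 95% interval of the ratio, which covers counting error only, excluded 1 for 2904 higher and 2600 lower genes. The plot of differences against mean level shows large differences at every level, from Rassf4 and Ehhadh at the top to Col5a3 and Onecut1 at the bottom.

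**Figure D1:**
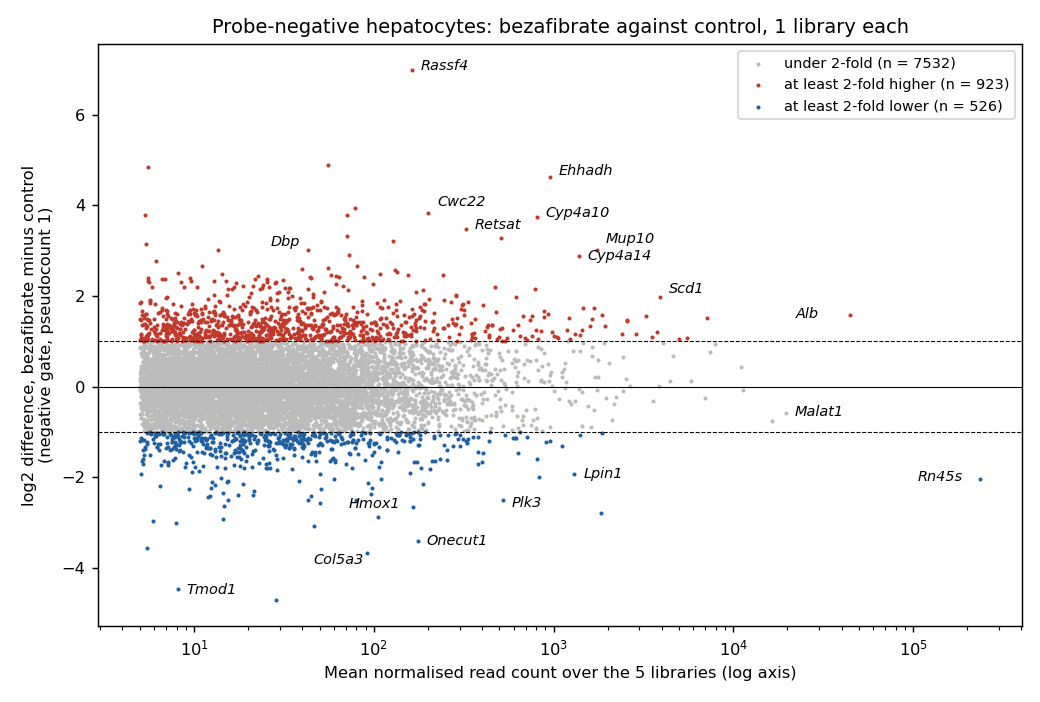
Each point is 1 of the 8981 genes, placed by its mean normalised read count over the 5 libraries (x axis, log scale) and its log2 difference between bezafibrate negative and control negative (y axis, pseudocount 1). Red points are the 923 genes at least 2-fold higher and blue points the 526 at least 2-fold lower, with dashed lines at 2-fold. Alb and Scd1 lie among the most abundant higher genes and Rn45s is the most abundant lower one.

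The split of these calls depended on the scaling of the columns. As deposited, 63.7% of calls were higher in bezafibrate; when each column was divided by its own total the share was 84.4%, and when divided by the total without Rn45s it was 34.1%. The median of all genes moved by 0.22 and by -0.24 on the log2 scale under these scalings, and differences below are to be read against the deposited scale's median of 0.02. Where a named gene or a list median changes sign under a scaling, this is said beside it. Counts of genes above or below 0 are on the deposited scale and shift with the scaling.

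The positive gate, whose 2 libraries are not shared with this comparison, had fewer calls: 4.97% of genes passed 2-fold upward and 2.91% downward, or 7.87% in all. Of the 923 genes higher in the negative gate, 358 (38.8%) were also 2-fold higher in the positive gate, where they made up 80.3% of 446. Of the 526 lower genes, 191 (36.3%) were also 2-fold lower there, out of 261 (73.2%). Most of the others had the same sign at a smaller size. Over all 923 higher genes, the shared ones included, 911 lay above 0 in the positive gate, with a median of 0.89 against 1.33. Over all 526 lower genes, the shared ones included, 518 lay below 0 there, with a median of -0.86 against -1.23. The genes were chosen by their negative-gate difference, and 848 of the 923 and 464 of the 526 were smaller in the positive gate. Rn45s differed less in the positive gate as well, at 34.8% against 18.5% of reads. Across the 8981 genes, which are not independent replicates, the differences in the 2 gates had a Pearson correlation of 0.83 and a Spearman correlation of 0.82.

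**Figure D2:**
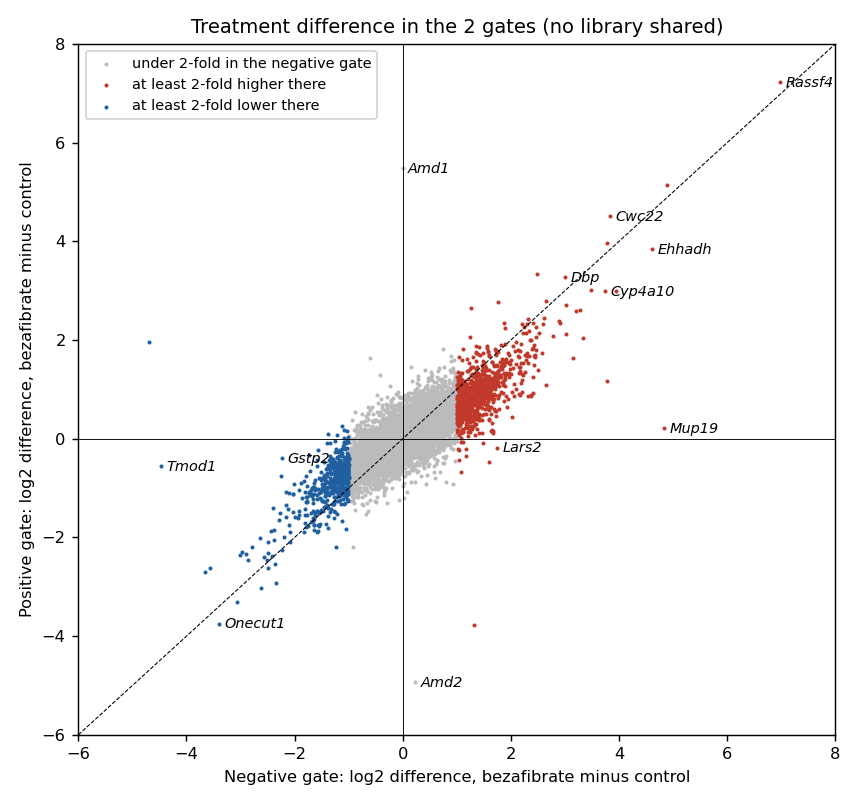
Each point is a gene, placed by its log2 difference between bezafibrate and control in the negative gate (x axis) and in the positive gate (y axis), coloured by its 2-fold call in the negative gate; the dashed line marks equal differences. Most coloured points lie between the dashed line and the horizontal axis, and Mup19, Tmod1, Amd1 and Amd2 lie far from the line.

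The Cyp4a genes of omega-oxidation were among the largest differences. Cyp4a10 (GRCm38, chromosome 4, 115518264 to 115533649), a fatty acid omega-hydroxylase, had 117 normalised reads in control negative and 1584 in bezafibrate negative, with 131.3 in control positive, 1048 in bezafibrate positive and 1160 in bezafibrate high. Cyp4a14 (chromosome 4, 115486200 to 115496142), its neighbour and paralog, had 318.2 and 2366, with 355.5, 1873 and 1986 in the same other libraries. Both control libraries were far below all 3 bezafibrate libraries for each gene, and bezafibrate negative was the highest of the 3. The ratio in the negative gate was 13.5 for Cyp4a10 (counting interval 12.4 to 14.8) and 7.43 for Cyp4a14 (7.06 to 7.83). Cyp4a12b went from 8.62 to 146.2, but reads of close copies may be split among Cyp4a genes; the 6 Cyp4a genes together went from 690.3 to 4918, a 7.12-fold ratio, against 4.75-fold in the positive gate. Of 14 analysed members of omega-oxidation, 9 (64.3%) were at least 2-fold higher and 0 lower, with a median log2 difference of 1.59. The list also holds the alcohol dehydrogenases Adh4 and Adh5 and the fatty aldehyde dehydrogenase Aldh3a2, which oxidise the hydroxylated product. At the low end of it, Cyp4f17 had 50.9 in control negative and 25.6 in bezafibrate negative, and Cyp4f13 had 63.6 and 62.4, changing sign with the scaling.

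Peroxisomal beta-oxidation was uneven among its enzymes. Ehhadh (chromosome 16, 21761287 to 21787807), the bifunctional enzyme of the middle steps, had 72.9 normalised reads in control negative and 1813 in bezafibrate negative. In control positive, bezafibrate positive and bezafibrate high it had 87.5, 1268 and 1535. Pecr, a peroxisomal enoyl-CoA reductase, went from 28.3 to 87.8. The thiolase genes Acaa1a and Acaa1b, of the last step, did not follow. Acaa1a had 125.7 in control negative and 90.8 in bezafibrate negative. Its near copy Acaa1b had 714.5 and 774.9, with a sign that changed with the scaling. Eci2, a peroxisomal isomerase, was also lower at 99.4 and 72.8, while Scp2 was higher at 1406 and 2108. At 2-fold, 6 of 24 genes (25%) were higher and 0 lower, 18 lay above 0, and the median was 0.55.

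Peroxins, which import proteins into peroxisomes and divide them, showed no 2-fold difference among 18 genes, beside 16.1% of all genes. Their median was -0.15, which changed sign with the scaling (range -0.40 to 0.07), and it was 0.04 in the positive gate. Pex11a, a division factor often used as a PPARalpha target, had 17.7 normalised reads in control negative and 15.2 in bezafibrate negative, with a sign that changed with the scaling. Pex16 was the lowest at 94.2 and 47.1. Of 11 listed acyl-CoA thioesterases, which release fatty acids from CoA, 10 were in the table and 7 were analysed. They had 0 genes at 2-fold in either direction, which says little in so few genes beside 16.1% of all genes. Their median was 0.15, negative under 1 scaling at -0.08. Acot1 had 12.3 and 13.6, with a sign that changed with the scaling, and Acot12, the most abundant member, 138.4 and 107.4.

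In mitochondrial beta-oxidation, 12 of 18 genes (66.7%) passed 2-fold upward and 0 downward, 17 lay above 0, and the median was 1.34, against 0.89 in the positive gate. The trifunctional protein subunits Hadha and Hadhb, which carry out the last 3 steps on long chains, went from 102.5 to 283.3 and from 21.1 to 80.4 normalised reads. Hadha had 98.7, 222.4 and 261.0 in control positive, bezafibrate positive and bezafibrate high. The chain-length dehydrogenases differed among themselves: Acadl went from 38.8 to 138.5 and Acadm from 71.0 to 186.1, while Acadvl, which acts on the longest chains, went from 159.1 to 222.9. Hsd17b10, a mitochondrial hydroxyacyl-CoA dehydrogenase, had the largest difference of the list at 7.80 and 35.6, and Eci1 went from 16.4 to 68.1. Acad9 was the 1 member below 0, at 111.7 and 88.2, and Etfb, an electron carrier subunit, had 105.9 and 125.4 with a sign that changed with the scaling.

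Entry of fatty acids into mitochondria through carnitine was split between its 2 transferases. Cpt1a, the regulated outer transferase, had 342.5 normalised reads in control negative and 366.2 in bezafibrate negative, with 325.1, 326.3 and 322.7 in control positive, bezafibrate positive and bezafibrate high. All 5 libraries lay close together, and the sign of the difference changed with the scaling. Cpt2, the inner transferase, went from 23.0 to 62.8, with 25.2, 39.7 and 51.8 in those other libraries. Bbox1, the last enzyme of carnitine synthesis, went from 10.9 to 49.5. Of 9 genes, 3 (33.3%) were at least 2-fold higher, with a median of 0.40.

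Fatty acid uptake, binding and activation had 8 of 19 genes (42.1%) at least 2-fold higher and 0 lower, with a median of 0.60. Cd36, a fatty acid translocase that is scarce in normal hepatocytes, had 0.411 normalised reads in control negative and 11.5 in bezafibrate negative, with 1.29, 6.15 and 7.86 in control positive, bezafibrate positive and bezafibrate high. Its control negative value rests on 2 reads, so the ratio of 27.9 has a counting interval from 7.50 to 234. With a mean of 5.44 over the 5 libraries, Cd36 passed the filter of 5 only through the bezafibrate libraries, and it is among the 8 higher genes. Fabp1, the abundant cytosolic fatty acid binding protein, went from 447.0 to 1420 and Dbi, which binds acyl-CoA, from 30.8 to 170.0. Lpl, a lipase that releases fatty acids from circulating triglyceride, went from 82.5 to 283.4. Acsl1, the main long-chain acyl-CoA synthetase, was lower at 1526 and 1166, while its relative Acsl5 went from 105.3 to 262.9.

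Other genes known as PPARalpha targets differed in both directions. At 2-fold, 7 of 32 (21.9%) were higher and 1 lower, 22 lay above 0, and the median was 0.27. Retsat (chromosome 6, 72598475 to 72608425), a retinol saturase, had 51.5 normalised reads in control negative and 587.7 in bezafibrate negative, with 52.4, 433.1 and 507.0 in control positive, bezafibrate positive and bezafibrate high. Vnn1, a pantetheinase, went from 2.67 to 17.5 on 13 and 131 reads. Several standard readouts of PPARalpha activity were not 2-fold higher. Angptl4, a lipase inhibitor, had 127.5 and 129.0, with a sign that changed with the scaling, and Plin2, a lipid droplet coat protein, had 69.6 and 105.7. The kinase Pdk4 had 8.62 and 3.87, and the hormone gene Fgf21 had 11.5 and 2.93, with 12.1, 4.57 and 4.66 in the other 3 libraries. Fgf21 and Pdk4 were thus lower in every bezafibrate library than in either control library, on 22 to 56 reads a library for Fgf21 and 29 to 51 for Pdk4.

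**Figure D3:**
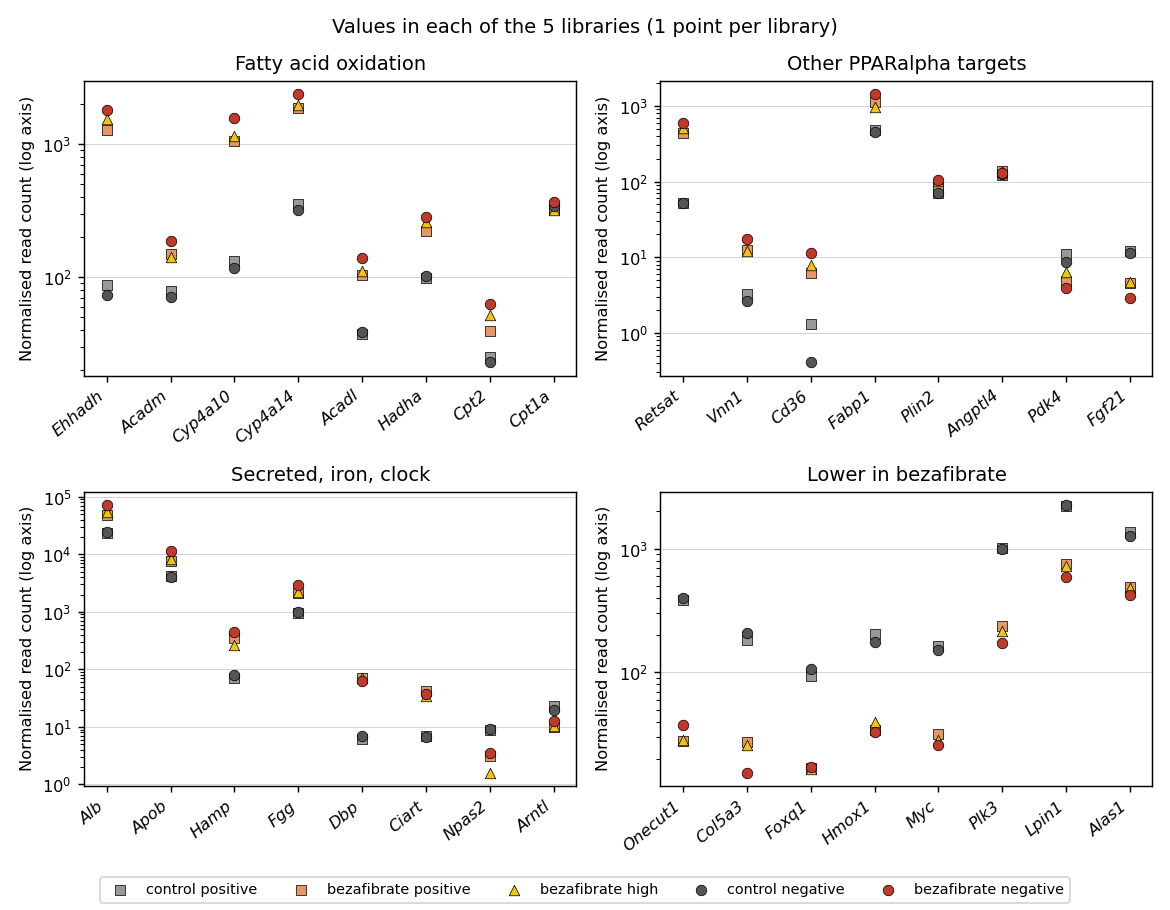
Each point is the normalised read count (y axis, log scale) of 1 gene (x axis) in 1 library; circles are the negative gate, squares the positive gate and triangles the high gate, with grey for control and colour for bezafibrate. Ehhadh, Cyp4a10 and Retsat are far higher in the 3 bezafibrate libraries, Cpt1a and Angptl4 overlap, and Onecut1, Col5a3 and Hmox1 are lower in all 3.

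The receptor and its partners ran in different directions. Ppara itself (chromosome 15, 85734983 to 85802819) had 284.4 normalised reads in control negative and 608.6 in bezafibrate negative, with 289.3, 657.9 and 655.8 in control positive, bezafibrate positive and bezafibrate high. It was the 1 of 18 receptor and cofactor genes at least 2-fold higher. Its RXR partner Rxra had 413.9 and 449.9, with a sign that changed with the scaling. The coactivator Ppargc1a had 58.5 and 32.9 while Ppargc1b had 29.4 and 46.7. Lpin1 (chromosome 12, 16535669 to 16610966), a phosphatidate phosphatase that also acts as a coactivator, was the 1 gene at least 2-fold lower, at 2256 and 594.9, with 2202, 754.2 and 719.0 in the other libraries. The median of the list was -0.24.

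Ketone body synthesis, which uses the acetyl-CoA of beta-oxidation, had 3 of 6 genes (50%) at least 2-fold higher and 1 lower. Bdh1, which makes beta-hydroxybutyrate, went from 63.4 to 164.5 normalised reads, while the transporter Slc16a6 was lower at 17.7 and 7.46. Among 16 lipid droplet genes, 5 (31.2%) passed 2-fold upward and 0 downward, with a median of 0.56. Hsd17b11 and Hsd17b13, droplet-bound dehydrogenases, went from 22.4 to 215.7 and from 90.5 to 258.7. The lipase inhibitor G0s2 was lower, at 10.5 and 4.93, and Mgll, a monoglyceride lipase, had 132.4 and 159.8.

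**Figure D4:**
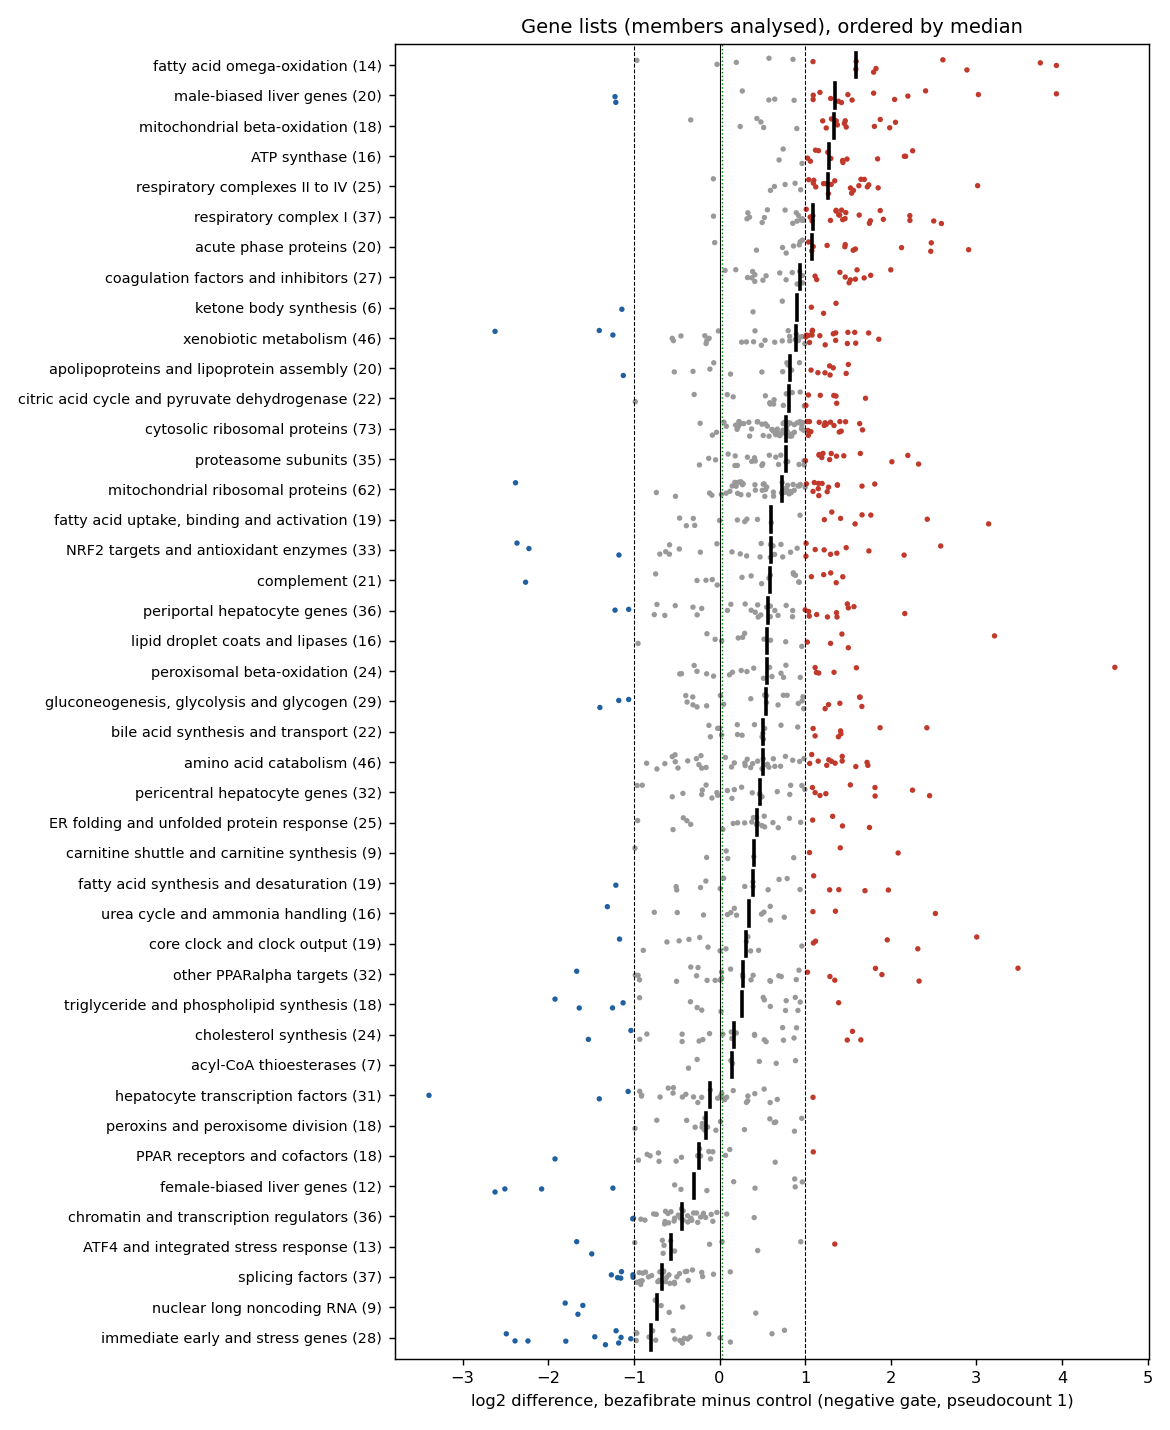
Each row is 1 of 43 gene lists with its number of analysed members, ordered by median; each point is a member placed by its log2 difference between bezafibrate negative and control negative (x axis, pseudocount 1). Black bars are list medians, the dotted line is the median of all genes at 0.02, and dashed lines mark 2-fold. Some genes belong to more than 1 list. Omega-oxidation at 1.59 is at the top and immediate early genes at -0.80 at the bottom.

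The promoters of the oxidation genes were read for the letters that PPARalpha and RXR bind. RefSeq promoters of GRCm38.p6 were at hand for 6922 of the 8981 genes, and the 250 bases before the start were searched on both strands. The half-site AGGTCA was present in 123 of 711 genes at least 2-fold higher (17.3%), in 50 of 406 lower (12.3%), and in 919 of the 6922 (13.3%). Over all 27025 genes of the promoter table it was present in 15.8%. The direct repeat made of 2 copies of AGGNCA with any 1 base between them, which holds the half-site in some of its forms, was present in 5 of the 711 (0.703%), 1 of the 406 (0.246%) and 0.419% of the 6922, and in 0.400% of the promoter table. Of 77 genes at least 2-fold higher in the lipid lists, 55 were in the promoter table and 14 of these (25.5%) had AGGTCA. The sequences below show 4 of these genes, with each match in capitals, and Ehhadh, which had the largest difference of a lipid gene and no match. They are written 5′ to 3′ on the strand of the gene and end before any annotated exon.
Fabp1: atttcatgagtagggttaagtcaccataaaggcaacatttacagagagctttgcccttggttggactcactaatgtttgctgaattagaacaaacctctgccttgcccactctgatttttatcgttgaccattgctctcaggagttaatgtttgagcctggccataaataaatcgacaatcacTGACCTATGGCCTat
Elovl1: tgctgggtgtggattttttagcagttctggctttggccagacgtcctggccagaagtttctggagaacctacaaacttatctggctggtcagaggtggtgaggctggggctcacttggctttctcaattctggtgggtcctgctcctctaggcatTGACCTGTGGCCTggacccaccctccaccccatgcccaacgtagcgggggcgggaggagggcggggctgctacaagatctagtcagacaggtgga
Acadm: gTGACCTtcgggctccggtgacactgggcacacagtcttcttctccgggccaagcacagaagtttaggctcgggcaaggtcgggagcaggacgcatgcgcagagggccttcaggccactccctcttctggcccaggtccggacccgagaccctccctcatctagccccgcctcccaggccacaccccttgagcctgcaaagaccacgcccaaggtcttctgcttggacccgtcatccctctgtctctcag
Cd36: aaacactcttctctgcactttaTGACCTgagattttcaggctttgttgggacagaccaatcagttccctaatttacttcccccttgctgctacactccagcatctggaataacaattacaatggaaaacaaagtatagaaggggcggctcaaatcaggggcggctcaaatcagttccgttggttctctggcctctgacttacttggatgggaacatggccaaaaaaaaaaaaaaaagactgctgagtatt
Ehhadh: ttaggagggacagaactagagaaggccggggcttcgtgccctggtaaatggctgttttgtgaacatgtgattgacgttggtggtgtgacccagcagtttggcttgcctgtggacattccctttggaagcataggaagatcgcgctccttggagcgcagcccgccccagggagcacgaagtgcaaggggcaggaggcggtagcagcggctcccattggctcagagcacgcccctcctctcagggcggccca
The Fabp1 window (chr6:71199629-71199826, plus strand) carries the 13-base repeat at 67 to 55 bases before the start, beside a gene that went from 447.0 to 1420 normalised reads. The Elovl1 window (chr4:118429451-118429700, plus strand) carries it at 95 to 83 bases before the start, beside a fatty acid elongase that was at least 2-fold higher. Acadm (chr3:153944644-153944893, minus strand) and Cd36 (chr5:17835897-17836146, minus strand) carry the 6-base half-site alone. The Ehhadh window (chr16:21787835-21788084, minus strand) holds neither in these 250 bases. These are letter matches in a short window and say nothing of sites elsewhere.

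Fatty acid synthesis and desaturation genes differed in both directions. Scd1 (chromosome 19, 44394455 to 44407879), the stearoyl-CoA desaturase, had 1624 normalised reads in control negative and 6374 in bezafibrate negative, with 1969, 4677 and 4880 in control positive, bezafibrate positive and bezafibrate high. The elongase Elovl2 went from 165.1 to 538.3. The synthase Fasn had 963.1 and 968.6 and the carboxylase Acacb 280.4 and 240.3, and both changed sign with the scaling. Mlxipl, the carbohydrate-responsive transcription factor ChREBP, had 1896 and 1334, and the elongase Elovl3 had 11.5 and 4.40. Of the 19 genes, 5 (26.3%) passed 2-fold upward and 1, Elovl3, downward.

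Triglyceride and phospholipid synthesis had more lower calls than higher ones. Of 18 genes, 4 (22.2%) were at least 2-fold lower and 1 higher, beside 5.86% and 10.3% of all genes, while the median was 0.26. The choline kinase Chka went from 347.0 to 110.8 normalised reads, with 332.9, 153.7 and 147.5 in control positive, bezafibrate positive and bezafibrate high. Chkb went from 133.3 to 55.5 and Pcyt2, of the ethanolamine branch, from 845.5 to 386.7. Lpcat3, which places polyunsaturated chains into phosphatidylcholine, was higher at 39.8 and 106.1. Cholesterol synthesis was mixed over 24 genes, with 3 at least 2-fold higher and 2 lower and a median of 0.17 that changed sign with the scaling and was -0.06 in the positive gate. Sqle, squalene epoxidase, was lower at 33.9 and 11.1, and the later enzymes Sc5d and Nsdhl were higher at 73.3 and 217.0 and at 6.36 and 22.1. Insig1 had 265.9 and 273.0, with a sign that changed with the scaling.

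Lipoprotein genes were higher in 15 of 20 cases, with 8 (40%) at least 2-fold higher, 1 lower and a median of 0.82. Apob, the structural protein of very low density lipoprotein, went from 4104 to 11648 normalised reads, with 4132, 7561 and 8185 in the other 3 libraries, and Apoh from 399.7 to 1116. Apoe had 11323 and 10806, with a sign that changed with the scaling, Apoa4 had 235.9 and 163.3, and Pltp, a phospholipid transfer protein, was lower at 14.0 and 5.87. Bile acid synthesis and transport had 7 of 22 genes (31.8%) at least 2-fold higher and 0 lower, with a median of 0.51. Akr1d1, a steroid 5-beta-reductase, went from 20.5 to 114.4 and the bile acid importer Slc10a1 from 148.4 to 547.3. Cyp7a1, the rate-limiting enzyme, went from 29.2 to 64.4, while Cyp8b1 and Nr0b2 had 246.6 and 226.2 and 112.3 and 104.2, with signs that changed with the scaling.

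In the respiratory chain, complex I had 22 of 37 genes (59.5%) at least 2-fold higher, complexes II to IV 19 of 25 (76%) and ATP synthase 13 of 16 (81.2%), with 0 lower in each. The medians were 1.09, 1.27 and 1.28, against 0.82, 0.91 and 0.91 in the positive gate. Ndufa4 went from 11.7 to 75.6 normalised reads, with 9.92, 53.4 and 48.5 in the other 3 libraries, and Uqcrb, of complex III, from 2.67 to 28.7. Atp5b, the catalytic beta subunit, went from 194.8 to 548.8. Ndufa13 and Cox7a2l were the members below 0, at 66.1 and 62.9 and at 18.7 and 17.7, and both changed sign with the scaling. The citric acid cycle list had 8 of 22 genes (36.4%) at least 2-fold higher and a median of 0.81, with Suclg1 from 18.5 to 62.5, while Fh1, fumarase, was lower at 73.7 and 59.9.

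Genes of protein synthesis and breakdown also had more higher than lower calls. Cytosolic ribosomal proteins lay above 0 in 70 of 73 cases, with 18 (24.7%) at least 2-fold higher and a median of 0.78. Mitochondrial ribosomal proteins had 13 of 62 (21.0%) higher and 1 lower, with a median of 0.73. The lower one, Mrpl18, went from 37.6 to 6.40 normalised reads, with 43.5, 9.77 and 9.46 in the other 3 libraries. Proteasome subunits had 13 of 35 (37.1%) higher and a median of 0.78, with Psma6 from 3.70 to 22.5 and Psma2 from 2.87 to 16.8. Rps18 and Rpl36 lay below 0 at 96.5 and 91.0 and at 61.6 and 52.5, and both changed sign with the scaling. Genes often used as references also differed: of 12, 5 (41.7%) were at least 2-fold higher and 1, Rn45s, lower, with a median of 0.69, close to the medians of these lists. B2m went from 125.0 to 513.9, Ppia from 60.2 to 174.2 and Gapdh from 317.6 to 769.1, while Tbp had 9.24 and 9.20, with a sign that changed with the scaling.

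These lists hold short transcripts. Their median transcript length was 971 bases for complex I, 865 for complexes II to IV, 823.5 for ATP synthase and 946 for cytosolic ribosomal proteins, against 3281 over all genes. Genes at least 2-fold higher had a median length of 2142 bases and a median GC content of 47.7%, and lower genes 3187 bases and 53.9%, against 49.9% GC over all genes. When genes were cut into 5 equal bins by transcript length, the bin of 238 to 1905 bases had 22.3% of its genes higher and 5.13% lower. The bin of 5329 bases or more had 3.29% higher and 6.05% lower. By GC content, the lowest bin had 15.3% higher and 1.73% lower, and the highest bin 4.26% and 11.2%. Length and GC ran with the difference in the positive gate too, with medians from 0.25 to -0.10 over the length bins. Their part in any list's difference was not tested.

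**Figure D5:**
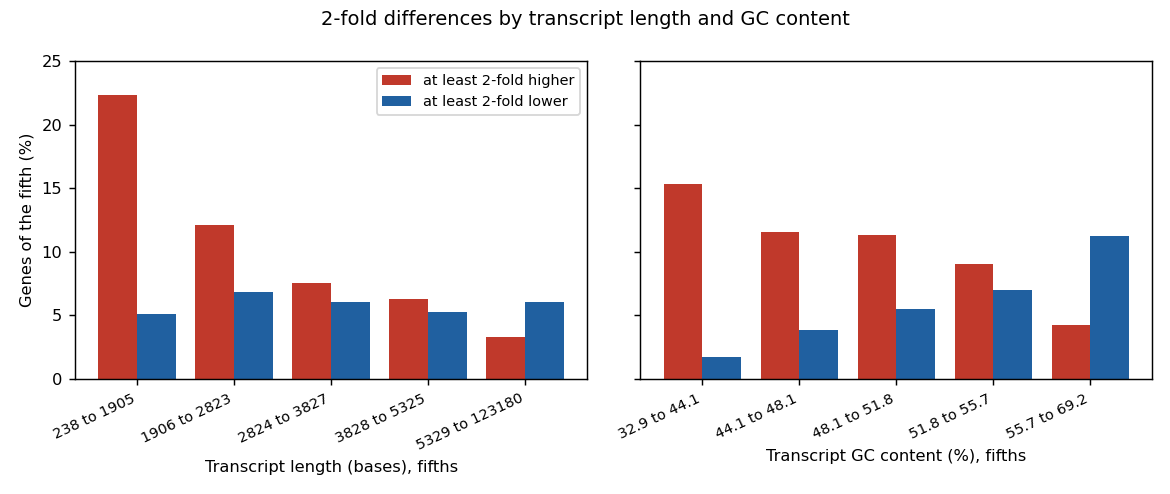
Bars give the share of genes (y axis, percent) at least 2-fold higher (red) or lower (blue) in bezafibrate negative than in control negative, in 5 equal bins of transcript length in bases (left) and of transcript GC content in percent (right). The higher share drops from 22.3% in the shortest bin to 3.29% in the longest, and the lower share climbs from 1.73% to 11.2% with GC content.

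Several groups of plasma protein genes had more higher than lower calls. Acute phase proteins had 12 of 20 genes (60%) at least 2-fold higher and 0 lower, with medians of 1.09 and 1.11 in the negative and positive gates. Coagulation factors and inhibitors lay above 0 in 27 of 27 cases, with 11 (40.7%) at least 2-fold higher and a median of 0.94. Hamp2, a relative of the iron hormone hepcidin, went from 17.9 to 140.8 normalised reads and Apcs, serum amyloid P, from 33.3 to 189.3. The fibrinogen chain Fgb went from 1422 to 3938, with 1340, 3118 and 3034 in the other 3 libraries, and the thrombin inhibitor Serpind1 from 121.3 to 488.5. Albumin RNA, Alb (chromosome 5, 90460897 to 90476602), went from 24303 to 72188, which was 3.41% and 8.47% of reads outside Rn45s. Complement had 5 of 21 genes (23.8%) higher and 1 lower with a median of 0.59. C3 went from 5856.5 to 11172, while C4a went from 96.1 to 19.2 and its near copy C4b had 2555 and 2409, a pair whose reads may be shared and of which C4b changed sign with the scaling.

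Drug-metabolising genes had 18 of 46 (39.1%) at least 2-fold higher and 3 (6.52%) lower, with a median of 0.89, against 0.38 in the positive gate. Cyp3a11, the main Cyp3a enzyme, went from 830.5 to 2779 normalised reads, with 852.8, 1891 and 2006 in control positive, bezafibrate positive and bezafibrate high. Ugt2b5, a glucuronosyltransferase, went from 120.1 to 438.8. The lower genes were Cyp2b9 at 161.6 and 67.6, Cyp2b13 at 30.6 and 4.13, and Nr1i3, the nuclear receptor CAR, at 166.1 and 62.1. The 3 Cyp2b genes in the table, which are close copies, summed to 219.1 and 111.0, a ratio of 0.507, and to 217.7 and 97.1 in the positive gate. They did not move together, as the remaining Cyp2b gene was higher in bezafibrate negative than in control negative. Antioxidant and NRF2 target genes had 10 of 33 (30.3%) higher and 3 lower, with a median of 0.60. Catalase, Cat, went from 695.4 to 2333 and Prdx1 from 41.1 to 251.1, while Hmox1, heme oxygenase, was lower at 174.5 and 33.1. Gstp2 had 21.1 and 3.73 but 16.8 and 12.6 in the positive gate.

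Calls among sex-biased liver genes differed between the lists. Male-biased genes had 14 of 20 (70%) at least 2-fold higher and 2 lower, with a median of 1.34. Female-biased genes had 4 of 12 (33.3%) at least 2-fold lower and 0 higher, with a median of -0.30, and split into 5 above 0 and 7 below. Among the male-biased genes are major urinary protein (Mup) genes, near-identical copies whose single values are uncertain. The 17 Mup genes in the table summed to 4980 normalised reads in control negative and 11569 in bezafibrate negative, a 2.32-fold ratio, against 5599 and 10048 in the positive gate. Cyp4a12a and Cyp4a12b count in both the male-biased and the omega-oxidation list. Cyp2b9 and Cyp2b13, described with the drug-metabolising genes, are 2 of the 4 lower female-biased genes, and Rtn4 had the most positive difference of that list, at 14.0 and 28.3. Xist, the 1 analysed nuclear long noncoding RNA above 0, had a log2 difference of 0.42, with a range of 0.21 to 0.62 over the settings tried. The labels give no sex, and whether the mice of the 2 treatments were of 1 sex was not tested.

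Immediate early and stress genes were the list with the lowest median, -0.80, beside 0.02 for all genes. At 2-fold, 10 of 28 (35.7%) were lower and 0 higher, and 24 lay below 0. Myc had 150.7 normalised reads in control negative and 26.0 in bezafibrate negative, with 163.2, 31.8 and 28.2 in control positive, bezafibrate positive and bezafibrate high. The AP-1 subunit Jun went from 1333 to 576.4, Egr1 from 1201 to 611.2 and the orphan receptor Nr4a1 from 39.8 to 6.80. Hspa1b, a heat shock chaperone, and Klf6 were the most positive members, at 6.36 and 11.5 and at 6.36 and 10.3. Genes of the integrated stress response had 2 of 13 (15.4%) lower and 1 higher with a median of -0.57. Ddit3, the factor CHOP, went from 20.9 to 6.80, while Trib3, a PPARalpha target too, was higher at 11.3 and 30.3.

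Lists of nuclear RNAs and regulators had medians below 0. The shares at least 2-fold lower ran from 5.56% to 33.3% among these lists, beside 5.86% of all genes. Nuclear long noncoding RNAs had 3 of 9 (33.3%) at least 2-fold lower and lay below 0 in 8 cases, with a median of -0.74, among them Malat1 at 23146 and 15406 normalised reads and Neat1 at 20162 and 11978. Splicing factors lay below 0 in 36 of 37 cases, with 6 (16.2%) at least 2-fold lower and a median of -0.67. Srrm2, a spliceosome scaffold, went from 2135 to 1147 and Son from 767.2 to 392.4. Chromatin and transcription regulators lay below 0 in 34 of 36 cases with a median of -0.43, but only Ankrd11 and Arid4b were 2-fold lower (5.56%, beside 5.86% of all genes). Kmt2d, a histone methyltransferase, went from 864.1 to 456.8. Rn45s was lower in the same direction, and the transcripts are long in part, with medians of 8773 bases for the chromatin list and 3527 for splicing factors. The medians in the positive gate, which shares no library with this comparison, were -0.46, -0.39 and -0.22 in the same order.

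Hepatocyte transcription factors had a median of -0.11, which changed sign with the scaling, with 3 of 31 (9.68%) at least 2-fold lower and 1 higher. Onecut1 (chromosome 9, 74861921 to 74891781), the factor HNF6, had 401.8 normalised reads in control negative and 37.3 in bezafibrate negative, with 384.6, 27.7 and 28.4 in control positive, bezafibrate positive and bezafibrate high. Its ratio of 0.0929 (counting interval 0.0817 to 0.105) was among the 7 genes at least 8-fold lower. Hnf4a, a central hepatocyte factor, went from 1032 to 637.7, and Cebpa had 431.8 and 446.1 with a sign that changed with the scaling.

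Outside the lists, Rassf4 (chromosome 6, 116633008 to 116673952), a Ras-association domain gene, had the largest difference. It had 0.821 normalised reads in control negative, on 4 reads, and 227.9 in bezafibrate negative, on 1710, with 1.08, 309.7 and 275.4 in control positive, bezafibrate positive and bezafibrate high. The counting interval of the ratio ran from 108 to 1020. All 3 bezafibrate libraries were high and both control libraries near the floor of 3 reads. Cwc22 (chromosome 2, 77881159 to 77946375), a splicing cofactor, went from 17.9 to 267.3, with 14.9, 361.7 and 340.4 in the others. Aadac, an esterase of the endoplasmic reticulum, went from 12.9 to 139.3, the arrestin-domain gene Arrdc3 from 18.5 to 121.7 and the sorting receptor Sort1 from 2.05 to 18.3. Among abundant genes, Mgst1, a microsomal glutathione transferase, went from 316.4 to 1401 and Uox, the peroxisomal urate oxidase, from 257.2 to 1008.

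On the lower side, the collagen gene Col5a3 went from 207.2 to 15.5 normalised reads, with 184.3, 27.4 and 25.7 in the other 3 libraries, and Col27a1 from 326.2 to 51.2. The stress kinase Plk3 (chromosome 4, 117128655 to 117133963) went from 989.6 to 174.2, with 1011, 235.0 and 214.4, and Foxq1, a forkhead factor, from 106.3 to 17.1. All 3 bezafibrate libraries were below both control libraries for each of these genes. Abundant lower genes included Alas1, the first enzyme of heme synthesis, at 1272 and 421.1, the growth factor binding protein Igfbp1 at 1729 and 702.2, and Vegfa at 832.1 and 378.3. Mug2, a murinoglobulin with close relatives, had 1439 and 359.6, and Cish, a growth hormone and cytokine target, 33.3 and 5.07.

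A few genes stood apart between the gates. Mup19 had 0 reads in control negative and 207 in bezafibrate negative, which was 44.8-fold the floor of 3 reads. The lower limit of the ratio's counting interval was 36.1. Mup19 had at most 0.158 normalised reads in the other 3 libraries, so it passed the mean filter only through bezafibrate negative. It is 1 of the near-identical Mup copies, whose single values are uncertain. Tmod1, a tropomodulin, had 0 reads in bezafibrate negative against 21.1 normalised reads in control negative, with 10.3, 6.78 and 2.27 in the others. Its control negative value was 52.9-fold the floor of 3 reads in bezafibrate negative. The upper limit of its ratio's counting interval was 0.0237. Lars2, the mitochondrial leucyl-tRNA synthetase, went from 38.2 to 130.6 in the negative gate and had 28.7 and 25.2 in the positive gate, with 42.6 in bezafibrate high. Amd1 had 0 reads in both compared libraries, and its near copy Amd2 had 34.1 and 40.1, a difference whose sign changed with the scaling. The 2 genes called in opposite directions in the 2 gates, named after their values were seen, have provisional symbols. They were 0610010B08Rik, at 80.3 and 2.13 against 10.1 and 42.4, and Gm14434, at 26.3 and 67.2 against 12.7 and 0. None of these 1-library values has a replicate.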

How the data were processed

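RNA of 5 sorted hepatocyte libraries was analysed, 1 per group. Per the labels' protocols, the RNA kit was one made for FFPE tissue, rRNA was removed, and directional libraries were sequenced in pairs. Per the submitters' processing notes, the tools were RSEM, Bowtie2, edgeR and Trimmomatic 0.36, with build mm10; annotation and roles are not stated there. The authors deposited 1 table of normalised signal, called normalised read counts here. The normalization is not stated; its values gave whole reads for 100% of entries within 0.001 read, and its scale equalled edgeR's TMM effective library sizes. A sample's group was read from its description.

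Genes with a mean of at least 5 were kept, log2 differences used a pseudocount of 1, and 2-fold was the call. A gene under 5 in both control libraries could pass through the bezafibrate libraries, as Cd36 did. Ratios of reads carry 95% Clopper-Pearson intervals, which cover counting error only. A count of 0 was also set at a floor of 3 reads. The code was tested on simulated data. Recovered depth ran from 5056884 to 7146578 reads.

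The members and the 43 gene lists and 9 marker lists were chosen with earlier results of these data known. Genes are named by rule: the 20 largest differences in each direction, leaving out provisional names; the 10 largest in each direction with a mean of at least 500; in each list the 2 most abundant, 2 most positive and 2 most negative; genes with 0 reads in 1 library and at least 100 in the other; the 8 largest gate differences in each direction; and reference genes. Acaa1b, Acacb, Acadl, Acadm, Acsl5, Adh4, Adh5, Aldh3a2, Angptl4, Arntl, Chkb, Cyp4a12a, Cyp7a1, Elovl1, Fabp1, Fasn, Fgg, Hadha, Hadhb, Hamp, Lpl, Pcyt2, Pex11a, Plin2, Ppargc1a, Reln, Rxra and Slc40a1 fall outside it and were chosen after their values were seen. Gene positions and transcript lengths are from GENCODE on GRCm38, where 95.8% of symbols matched 1 gene, and promoters from RefSeq. Alternatives were other pseudocounts, filters and column scalings, thinning, DESeq2 1.42.0 size factors and an additive edgeR 4.0.16 fit on recovered reads. Python 3.11.15, numpy 2.4.6, pandas 2.3.3, scipy 1.17.1 and R 4.3.3 were used. Some genes are not reported here.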

Additional observations from a re-analysis of the deposited data

Results flagged for a closer look

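Some differences between bezafibrate and control had opposite signs in the negative and positive gates; with 1 library each, none of these differences between gates was tested. The provisional genes 0610010B08Rik and Gm14434 passed 2-fold in opposite directions: 0610010B08Rik was -4.70 in the negative and 1.96 in the positive gate on the log2 scale, a gap of -6.66, and Gm14434 was 1.32 and -3.78, a gap of 5.10. Elp5, an Elongator subunit, was 1.08 in the negative and -0.67 in the positive gate on the log2 scale, a gap of 1.74, on values of 5.54 and 12.8 against 10.4 and 6.15. Gpatch11 was 0.80 and -0.88, a gap of 1.68. Sds, serine dehydratase of amino acid breakdown, was -0.73 and 0.34, a gap of -1.07, on values of 499.3 and 300.5 against 343.4 and 435.8. The lactate and ketone body transporter Slc16a1 was 0.39 and -0.27, a gap of 0.66. Cyp3a41a, which has close Cyp3a copies, was 0.41 and -0.49, a gap of 0.90, and the glutathione transferase Gstm1 was 0.15 and -0.29, a gap of 0.43. Itih3 was -0.06 and 0.08, a gap of -0.14. Signs of Gstm1 and Itih3 changed with the scaling. Among lists, the peroxin median was -0.15 and 0.04, a gap of -0.19, and the cholesterol synthesis median 0.17 and -0.06, a gap of 0.23.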

How the results depend on the processing

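Of the counts over genes, 26 values stayed within 1.5 times the main count and 12 did not. No gene with a 2-fold call among those named reversed its sign, but the balance of higher to lower calls reversed when columns were divided by totals without Rn45s. Against 923 higher, 526 lower and 549 called alike in both gates, a pseudocount of 5 gave 317 lower and 347 in both gates. No filter gave 809 lower, and a mean of at least 20 gave 574 higher, 301 lower and 356 in both gates. Dividing by column totals gave 1444 higher and 267 lower, and by totals without Rn45s 545 higher and 1053 lower. An additive edgeR fit of treatment and gate was made over 4 libraries, with 1 residual degree of freedom. The fit gave 2166 higher and 1944 lower of 8981 genes at an adjusted p of 0.05, with no 2-fold limit. The gates of a treatment may share a liver, so it is a value across gates, not a replicated test. List medians moved in 87 of 515 cases and named genes in 505 of 3682. That fit, with gate as the block, was the one blocked fit that could be made. Pairs within this gate could not be formed, since each group has 1 library, and no library could be left out for the same reason. Depth limits low genes: 1 read was worth 0.205 normalised reads in control negative.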

Other observations

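Clock genes differed in both directions. At 2-fold, 5 of 19 genes (26.3%) were higher and 1 lower, with a median of 0.31. Dbp (chromosome 7, 45705088 to 45710203), an output transcription factor of the clock, had 6.98 normalised reads in control negative and 63.1 in bezafibrate negative, with 6.25, 69.7 and 70.1 in control positive, bezafibrate positive and bezafibrate high. Ciart, a repressor of the clock, went from 6.78 to 37.7, and Npas2, an activator, was lower at 9.03 and 3.47. The labels state no time of day, so time and treatment cannot be told apart. Genes of protein folding in the endoplasmic reticulum had 4 of 25 (16%) at least 2-fold higher and 0 lower, with Dnajb9 from 9.03 to 32.8.

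Nitrogen and glucose metabolism were mixed. The urea cycle list had 3 of 16 genes higher and 1 lower with a median of 0.34. Otc, ornithine transcarbamylase, went from 40.2 to 235.8 normalised reads, with 39.0, 175.4 and 186.3 in the other 3 libraries, while Got1 went from 444.7 to 178.8 and Cps1 changed sign with the scaling. Amino acid breakdown had 12 of 46 (26.1%) higher and 0 lower with a median of 0.50. Gluconeogenesis and glycolysis had 6 of 29 (20.7%) higher and 3 lower with a median of 0.55. G6pc, the glucose-6-phosphatase that releases glucose, went from 1973 to 945.4, Pck1 from 3916 to 3158, and the glucokinase regulator Gckr from 389.7 to 147.3.

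Zonal genes of the liver lobule differed in how the gates compared. Pericentral genes had 9 of 32 (28.1%) higher and 0 lower, with medians of 0.47 in the negative and 0.05 in the positive gate, and 29 of 32 differences were larger in the negative gate. Periportal genes had 11 of 36 (30.6%) higher and 2 lower, with medians of 0.57 and 0.58, and 19 of 36 were larger in the negative gate. The pericentral enzyme Cyp2e1 went from 805.4 to 1608 in the negative gate and had 1007 and 1293 in the positive gate. Lists that are not zonal varied in this count too. It was 38 of 46 for drug-metabolising genes, 24 of 27 for coagulation factors and 8 of 18 for peroxins. The share over all genes is not given here, and the difference between zones was not tested.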
